A study of Mus musculus with 14 samples.

Results

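The 29 genes described here encode enzymes that feed, run and drain the mitochondrial tricarboxylic acid (TCA) cycle or oxidise fatty acids, and they were taken from the deposited expression table by gene symbol alone. All 29 were among its 19940 genes, and all 29 were among the 12096 genes tested. They comprised 3 subunits of the pyruvate dehydrogenase complex, 10 TCA cycle enzymes or subunits, the dehydrogenases Idh2 and Mdh1, 3 genes of the carnitine shuttle, 3 acyl-CoA dehydrogenases, 5 genes of the later steps of beta oxidation and 3 genes that pass the electrons on. Expression had been measured by RNA sequencing in monocyte-derived macrophages sorted from the tissue labelled CNS when experimental autoimmune encephalomyelitis, an induced autoimmune inflammation of the nervous system, was at its peak. There were 14 libraries, 7 of wild-type (wt) donor cells carrying CD45.1 and 7 of mCAT donor cells carrying CD45.2. The mCAT donors were CCR2creERT2/+ and mcat lsl/wt, so that a Cre recombinase made active by tamoxifen and driven from the Ccr2 locus could switch on a catalase directed to mitochondria. Both donor marrows had been given in equal numbers to lethally irradiated hosts, whose own genotype the labels do not give, and tamoxifen is listed for all 14 libraries, wt included. Irradiation can leave host macrophages in the tissue. The donor groups therefore differed in the CD45 allele, in the Cre allele at 1 copy of Ccr2 and in the catalase transgene, and these cannot be told apart here.

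Pyruvate dehydrogenase turns pyruvate into acetyl-CoA, and the TCA cycle oxidises the acetyl group while passing electrons to the carriers that feed the respiratory chain. Long-chain fatty acids enter the mitochondrion as carnitine esters and are shortened by rounds of dehydrogenation, hydration, a further dehydrogenation and thiolysis, each round giving acetyl-CoA. In macrophages, inflammatory activation is known for interrupting the cycle and diverting citrate, whereas alternative activation is associated with fatty acid oxidation.

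Promoter sequence was matched for 27 of the 29 genes, in 32 windows of RefSeq (build GRCm38.p6) that run from 250 bases before to 50 bases after each start. Idh3a and Acaa2 had no entry. Hadha and Hadhb encode the alpha and beta chains of the mitochondrial trifunctional protein and lie head to head on opposite strands, with starts 273 bases apart, so their windows share 228 bases. This stretch is shown because 1 piece of DNA precedes both genes, and it is written on the plus strand of chr5:30155003-30155230, where Hadha reads to the left and Hadhb to the right.
Hadha and Hadhb: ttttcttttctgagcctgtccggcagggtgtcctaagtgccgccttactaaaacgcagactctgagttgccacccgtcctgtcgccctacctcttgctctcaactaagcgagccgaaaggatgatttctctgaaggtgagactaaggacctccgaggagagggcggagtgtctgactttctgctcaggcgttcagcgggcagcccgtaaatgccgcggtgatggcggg

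The sequence before Cpt1a is shown because this gene had the largest genotype difference of the 29. It covers the 250 bases before the start, at chr19:3323051-3323300 on the plus strand, and the capitals mark the CCAAT motif that begins 19 bases before the start.
Cpt1a: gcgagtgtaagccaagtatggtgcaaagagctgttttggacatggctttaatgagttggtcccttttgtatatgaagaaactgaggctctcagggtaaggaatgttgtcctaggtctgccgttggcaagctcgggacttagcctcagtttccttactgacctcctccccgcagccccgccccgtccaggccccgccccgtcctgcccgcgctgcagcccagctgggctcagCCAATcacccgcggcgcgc

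The letters CCAAT, searched on both strands, were found in windows of 13 of the 27 genes, and in 56.2% of the 32 windows against 37.4% of all 32851 windows. Ogdh alone supplied 6 of the 32 windows, all of them with this motif. GCGCA and GCGC with any 1 base between them, a form of the site of NRF1, a factor known for nuclear genes of mitochondrial proteins, was found on either strand in windows of 4 genes (Dld, Sucla2, Etfb and Etfdh), which is 12.5% of the 32 windows against 4.60% of all windows. The following 50 bases hold the match, in capitals, for 3 of these 4 genes, which belong to the cycle and to electron transfer. The Sucla2 match reads on the opposite strand of the sequence shown. Sucla2 is at chr14:73552736-73552785 on the plus strand, Etfb at chr7:43444022-43444071 on the plus strand, and Etfdh at chr3:79628866-79628915 on the minus strand.
Sucla2: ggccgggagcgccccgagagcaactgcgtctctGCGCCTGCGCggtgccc
Etfb: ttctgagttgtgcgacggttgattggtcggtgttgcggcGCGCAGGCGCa
Etfdh: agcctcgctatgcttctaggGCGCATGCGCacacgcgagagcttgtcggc

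AAGGTCA, the element bound by estrogen-related receptors, was found on either strand for Ogdh and Acadm, in 6.25% of the 32 windows against 4.72% of all. The direct repeat bound by PPAR, AGGTCA followed by any 1 base and AGGTCA again, was in none of the 32 windows and in 0.0396% of all. A match is a description of letters only.

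Estimated depth ran from 17.5 to 43.1 M reads (M for mega) in the wt libraries and from 27.8 to 46.5 M in the mCAT libraries, and the wt library numbered 7 was the shallowest. The library codes fall into a C1 series of 8 libraries and a C2 series of 6, whose meaning the labels do not state. They also give a stem that 6 wt and 6 mCAT libraries share as pairs, while wt 1 and mCAT 3 have no partner. The labels do not say whether the libraries of a group came from separate animals, so p-values measure the spread between these libraries, which may be technical. Cat, which encodes catalase, had a mean of 2155 ± 626 normalised counts in the wt libraries and 2831 ± 808 in the mCAT libraries (SD, n = 7 each), and the mCAT partner was above the wt partner in 6 of 6 pairs, as for 2.74% of all genes tested. The exact sign-flip test for Cat gave p = 0.0312, the smallest 6 pairs allow, and limma did not call it (adjusted p = 0.878 without pairing and 0.385 with pairing). Ccr2, at which the Cre allele sits, was lower in mCAT in 6 of 6 pairs and was called with pairing by stem (limma, adjusted p = 0.00563) but not without it (limma, adjusted p = 0.878). All 12 macrophage markers looked at were among the genes tested, with Lyz2 the most abundant. Markers of other cells were also present: summed normalised counts ran from 16764 to 70438 for microglia, from 4037 to 8570 for oligodendrocytes, from 2806 to 8327 for T cells, from 1798 to 7619 for neutrophils and from 50.6 to 353 for natural killer cells. Only Eomes (natural killer cells) and Mpo (neutrophil lineage) of these lists were below 10 in all 14 libraries. The normalised count is the count after scaling between libraries, recovered from the deposited log2 values. In bulk samples, fewer cells of a type and less RNA per cell cannot be told apart.

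All 29 genes were well expressed. Their mean normalised counts in wt ran from 525 for Cpt2 to 10165 for Mdh2, and the lowest single value was 281, for Cpt2 in wt 1. Levels were compared between genes per kilobase of transcript. On that scale Mdh2, the mitochondrial malate dehydrogenase, stood highest at 6981 ± 1257 normalised counts per kilobase (mean ± SD, n = 7 wt libraries). Idh3g, Idh3b, Etfb and Pdhb followed at 3816 ± 552, 3307 ± 254, 3280.5 ± 577 and 3077 ± 261, and each of these 4 lay within the larger SD of its neighbour. The lowest levels belonged to the 3 genes of the carnitine shuttle and to Etfdh. Etfdh, which hands electrons to ubiquinone, stood at 547 ± 155, Slc25a20, the carnitine-acylcarnitine carrier, at 519 ± 40.6 and Cpt1a at 466 ± 137, and these 3 did not differ beyond their spread. Cpt2 was lowest at 221 ± 54.8 per kilobase. The mean of Mdh2 was 31.6 times that of Cpt2 per kilobase.

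**Figure D1:**
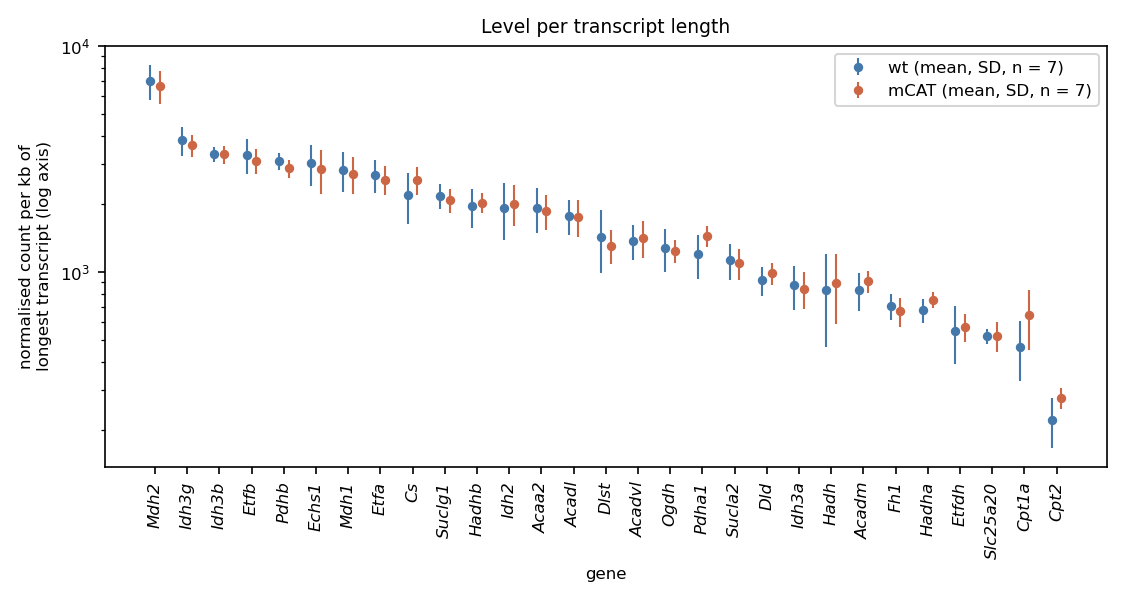
Level of each of the 29 genes per kilobase of its longest transcript (normalised count per kilobase, log axis), sorted by the wt mean. Points are means and bars SDs over 7 wt (blue) and 7 mCAT (orange) libraries. Mdh2 lies highest, and Cpt2, Cpt1a, Slc25a20 and Etfdh lie lowest.

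The 29 genes varied somewhat less than all genes tested. In the 12 paired libraries their median SD was 0.21 on the log2 scale, beside 0.27 for all genes. They were not set against other genes of like level. The ratio of the highest to the lowest library ran from 1.31-fold for Idh3b to 3.83-fold for Hadh, with a median of 1.84-fold, and it was under 2-fold for 20 genes. In the 12 paired libraries, a median of 73.4% of the variance of the 29 genes lay between stems and 4.20% between genotypes, beside 65.5% and 3.83% for all genes tested. Stems held over 50% of the variance in 25 of the 29, but the median of all genes tested, 65.5%, was also above that mark. The share of all genes above 50% was not counted, so whether the 25 are a trait of these genes cannot be told. Hadh, the short-chain hydroxyacyl-CoA dehydrogenase, had 98.2% of its variance between stems, Mdh2 had 95.2% and Echs1, which hydrates enoyl-CoA, had 91.7%. The exceptions were Cpt2 (19.1%), Etfdh (43.9%), Fh1 (45.0%) and Hadha (46.6%). Genotype held over 20% of the variance in 3 of the 29, Cpt2 (41.9%), Pdha1 (24.2%) and Cpt1a (20.6%), and in 1386 of all 12096 genes, a like share.

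The wt 1 library stood apart. It was the lowest of the 14 libraries for 15 of the 29 genes, where it was lowest for 21.4% of all genes tested, and it was the highest for 2, Dlst and Ogdh, where it was highest for 19.7% of all. Its median deviation from the gene means was -0.37 on the log2 scale, with 6 of the 29 genes above their mean. In mCAT 1 all 29 genes were above their mean, and in wt 2 it was 27. The median deviation of all genes tested was -0.01 in wt 1 and 0.01 in both mCAT 1 and wt 2. Around these medians all genes spread with an SD of 0.58 in wt 1, 0.31 in mCAT 1 and 0.26 in wt 2. The share of all genes above their mean was not counted. The erythroid marker sum was 8293 normalised counts in wt 1, the highest of the 14 libraries, whose range began at 223. The natural killer sum was also highest there, at 353. The microglia marker sum was lowest there at 16764, as was the T cell sum at 2806. For the remaining marker lists wt 1 was neither highest nor lowest. The part of these differences in the results below was not tested. Without wt 1 the range across libraries was under 2-fold for 26 of the 29 genes, the median range was 1.65-fold, and that of Hadh was 3.05-fold.

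**Figure D2:**
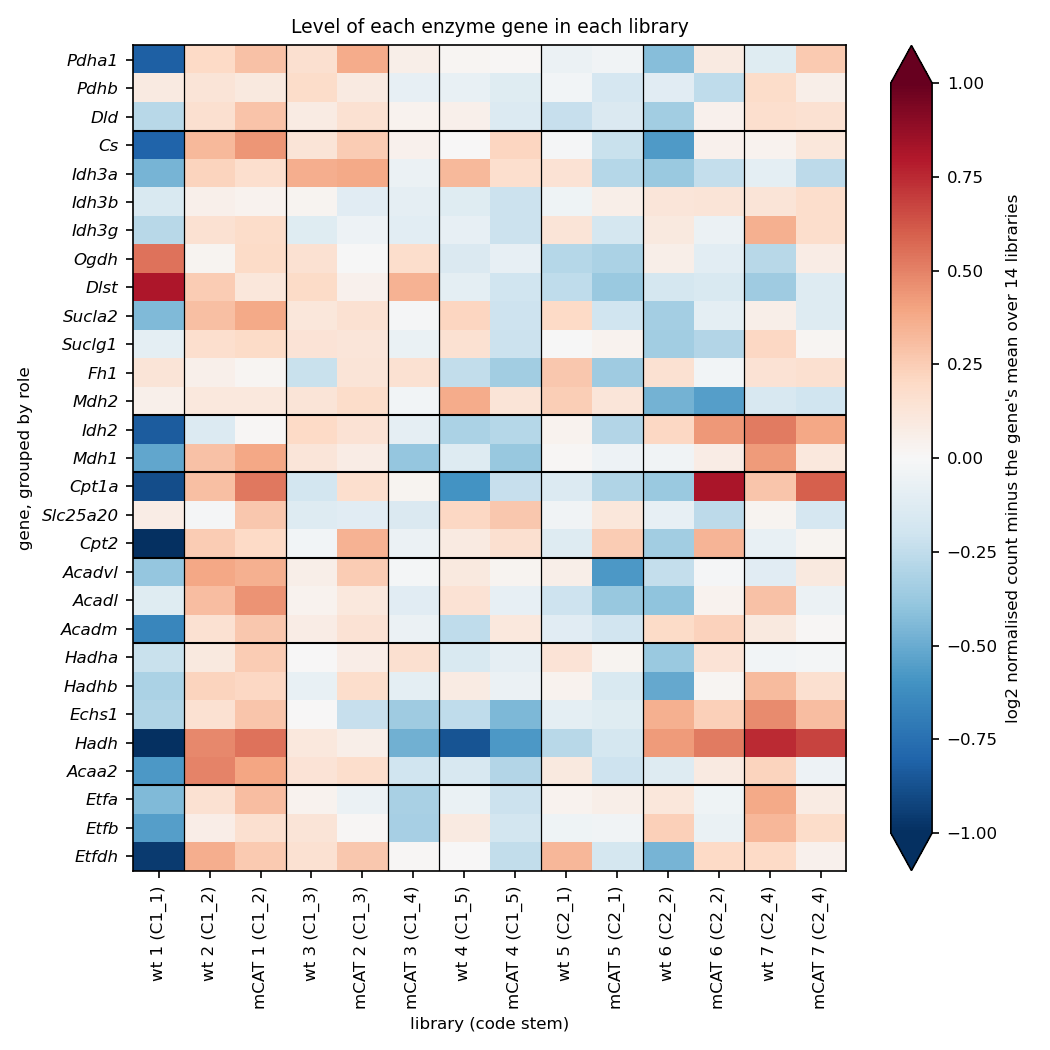
Deviation of each of the 29 genes from its mean over the 14 libraries (log2 scale, colour), with libraries in columns ordered by code stem and genes in rows by enzyme group. Partners of a stem have like colours for most genes, and wt 1 is below the mean in 23 of the 29 genes.

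The first comparison asked whether the genes differed between mCAT and wt cells of the mixed chimeras. No member of the pathways passed the test. With limma, 0 of the 29 genes had an adjusted p under 0.05 in the fit over all 14 libraries, where 0.198% of all genes tested were called, and 0 of 29 in the fit paired by stem, where 0.314% were called. An unadjusted p under 0.05 was reached by 2 of the 29 in each fit, where 5.37% of all genes reached it without pairing and 9.24% with pairing. The adjusted p-values of the 29 ran from 0.878 to 0.997 without pairing and from 0.452 to 0.971 with pairing. The median difference of the 29 genes was -0.01 on the log2 scale without pairing and -0.02 with pairing, beside -0.00 for all genes tested without pairing.

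The data bounded how large a difference could have been. Folds of intervals, here and below, are those of the deposited log2 scale, which compresses differences, most at low counts. The unpaired Cpt2 difference was 0.30 on that scale and 0.36 as log2(normalised count + 1). The shares of all genes include genes with lower counts. The 95% interval of the difference lay within 2-fold either way for all 29 genes in both fits, as it did for 97.2% of all genes without pairing and 99.5% with pairing. It lay within 1.5-fold for 25 of the 29 without pairing, where 74.4% of all genes did so, and for 28 of the 29 with pairing, where 94.2% did so. The exception with pairing was Cpt1a, whose interval reached 1.56-fold. A p that misses the threshold does not show that the levels were equal. Of the 29 genes, 12 had a difference above 0 without pairing and 11 with pairing, while 49.7% and 49.8% of all genes did.

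**Figure D3:**
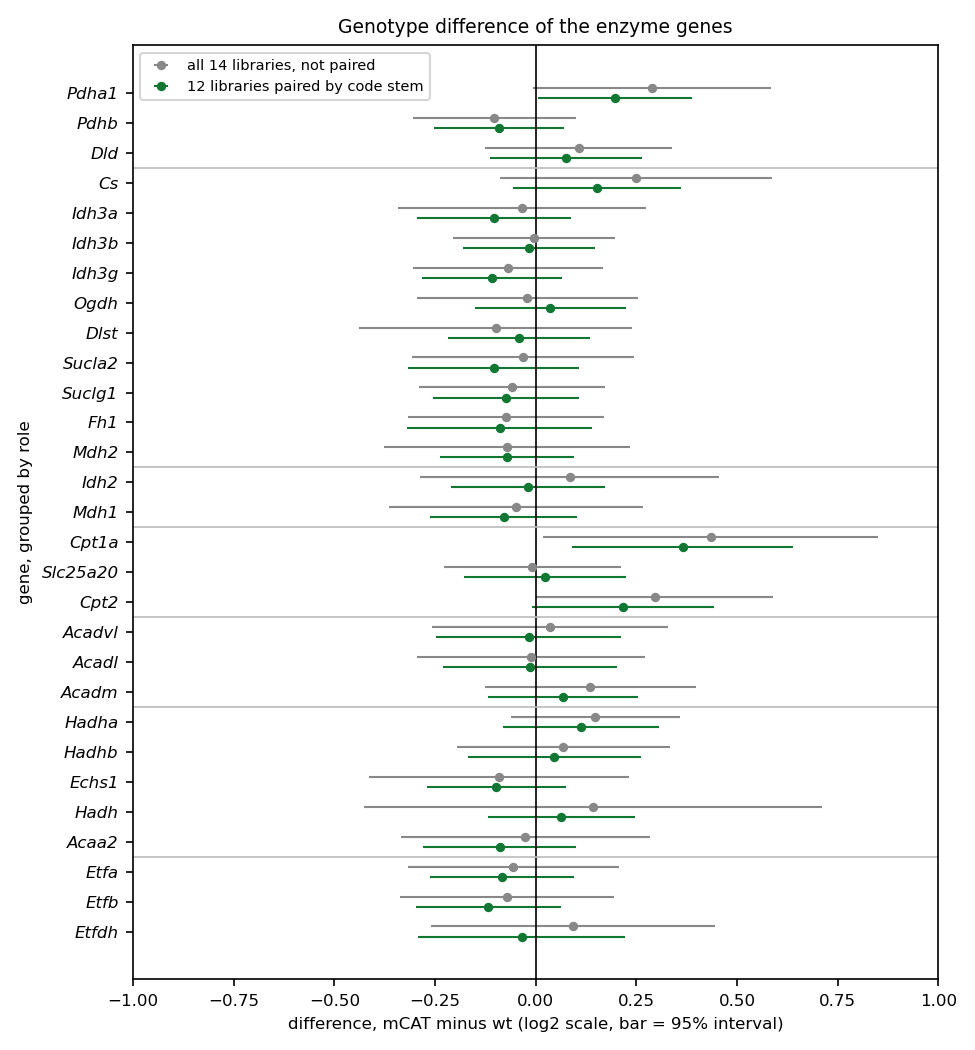
Difference between mCAT and wt (log2 scale, mCAT minus wt) for each of the 29 genes, with 95% intervals, from all 14 libraries (grey) and from the 12 libraries paired by stem (green). All intervals lie within 1 log2 unit of 0, and Cpt1a, Cpt2 and Pdha1 lie farthest to the right.

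Within the pyruvate dehydrogenase complex, the subunits of its first enzyme had differences of opposite sign. Pdha1, the catalytic alpha subunit, had a lowest, median and highest normalised count of 2093, 3534 and 4212 in wt and of 3596, 3908 and 4745 in mCAT. The groups overlapped, and mCAT was the higher partner in 5 of 6 pairs. The log2 difference of Pdha1 was 0.29 (SE 0.14) without pairing and 0.20 (SE 0.09) with pairing (limma, adjusted p = 0.878 and 0.519), and it was 0.18 without pairing when wt 1 was left out. Pdhb, the beta subunit, ran from 4133 over 4766 to 5074 in wt and from 3752 over 4227 to 4784 in mCAT. Pdhb was lower in mCAT in all 6 pairs, the only one of the 29 genes with all pairs in 1 direction, where 2.63% of all genes tested were lower in 6 of 6 pairs. The mCAT level of Pdhb was between 0.908 and 0.976 of its wt partner, a difference of -0.09 (SE 0.08) on the log2 scale that did not pass the test across all genes (limma, paired, adjusted p = 0.706). For this single gene the exact sign-flip test gave p = 0.0312, the smallest 6 pairs allow. Any gene with all 6 pairs in 1 direction has this p, so it adds nothing to that count. It was not adjusted for the 29 genes. Dld, the lipoamide dehydrogenase that also serves the oxoglutarate complex, had medians of 2483 in wt and 2465 in mCAT and a paired difference of 0.07 (SE 0.09).

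The TCA cycle itself showed small differences in both directions. Of its 10 genes, 1 had a difference above 0 without pairing and 2 with pairing, and the paired differences ran from -0.11 to 0.15 on the log2 scale. Cs, citrate synthase, which opens the cycle, was the one above 0 in both. Its normalised count ran from 3859 over a median of 6747 to 8433 in wt and from 5774 over 7273 to 9169.7 in mCAT. The ranges of Cs overlapped, mCAT was higher in 5 of 6 pairs, and the paired difference was 0.15 (SE 0.10, 95% interval -0.06 to 0.36). Without pairing it was 0.25, and 0.14 when wt 1 was left out. Idh3g, the regulatory gamma subunit of the NAD-linked isocitrate dehydrogenase, had medians of 5247 in wt and 4719 in mCAT, with a paired difference of -0.11 (SE 0.08). Fh1, fumarate hydratase, ran from 1518 over 1965 to 2160.1 in wt and from 1400.2 over 1822 to 2005 in mCAT, with a paired difference of -0.09 (95% interval -0.32 to 0.14). For both genes the wt and mCAT ranges overlapped through most of their length.

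The other 7 cycle genes are given by their paired log2 differences. The catalytic subunit Idh3a stood at -0.10 (SE 0.09) and its partner Idh3b at -0.02 (SE 0.08). Ogdh and Dlst, the first and second components of the oxoglutarate dehydrogenase complex, stood at 0.04 (SE 0.09) and -0.04 (SE 0.08). Sucla2 and Suclg1, subunits of succinyl-CoA ligase, stood at -0.10 (SE 0.10) and -0.07 (SE 0.09), and Mdh2 at -0.07 (SE 0.08). None of the 7 was further from 0 than 1.5 SE. Idh2, the NADP-linked mitochondrial isocitrate dehydrogenase, had a paired difference of -0.02 (SE 0.09), and Mdh1, the cytosolic malate dehydrogenase, one of -0.08 (SE 0.08).

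The carnitine shuttle held the largest genotype differences of the 29 genes, although none passed the test across all genes. Cpt1a, the outer-membrane carnitine palmitoyltransferase that controls entry of long-chain fatty acids, ran from 1225 over a median of 1999 to 2798 normalised counts in wt and from 1838 over 2549 to 4005 in mCAT. The highest value, 4005, was that of mCAT 6, and the groups overlapped. Cpt1a was higher in mCAT in 5 of 6 pairs, with ratios from 0.890 to 2.29 and a median of 1.27. Its log2 difference was 0.43 (SE 0.20) without pairing and 0.36 (SE 0.13, 95% interval 0.09 to 0.64) with pairing (limma, adjusted p = 0.878 and 0.452). An exact permutation of the 7 against 7 libraries gave p = 0.0711, and leaving out wt 1 gave a difference of 0.33.

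Cpt2, the inner-membrane transferase that returns the acyl group to coenzyme A, ran from 281 over 546 to 687 in wt and from 552 over 660.0 to 732 in mCAT. The value of 281 was that of wt 1, and mCAT was higher in 5 of 6 pairs. The log2 difference of Cpt2 was 0.30 (SE 0.14) without pairing and 0.22 (SE 0.11, 95% interval -0.01 to 0.44) with pairing (limma, adjusted p = 0.878 and 0.558). It was 0.18 without pairing when wt 1 was left out. Slc25a20, which exchanges acylcarnitine for carnitine between these enzymes, had the same mean in both groups, 925 ± 72.5 in wt and 925 ± 142 in mCAT (SD, n = 7 each), and a paired difference of 0.02 (95% interval -0.18 to 0.22).

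**Figure D4:**
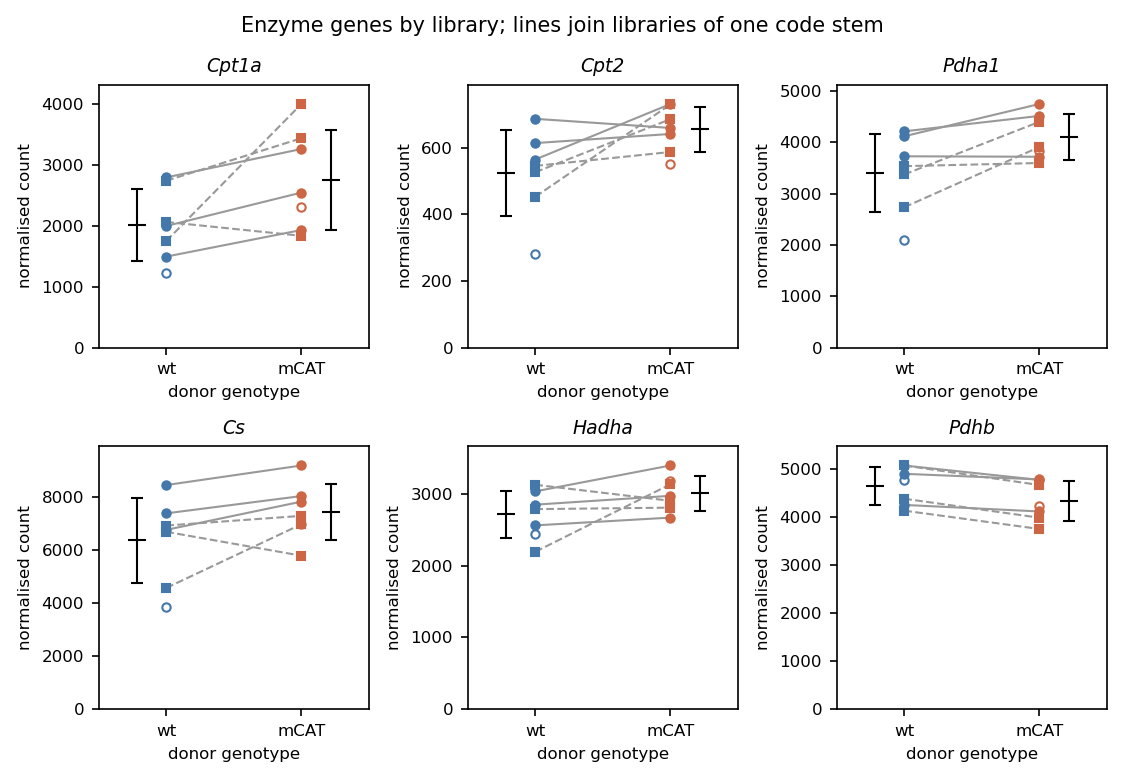
Normalised count of Cpt1a, Cpt2, Pdha1, Cs, Hadha and Pdhb in each wt (blue) and mCAT (orange) library, with lines joining partners of a stem (solid and circles for C1, dashed and squares for C2), open symbols for wt 1 and mCAT 3, and black bars for the mean and SD of 7 libraries. mCAT is the higher partner in 5 of 6 pairs for the first 5 genes and in 0 of 6 for Pdhb.

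Of the acyl-CoA dehydrogenases, which start each round of oxidation for chains of different length, none had a paired difference beyond 0.07 on the log2 scale in size. Acadm, for medium chains, ran from 1116 over 1840.5 to 1996 in wt and from 1537 over 1879 to 2105 in mCAT, and its paired difference was 0.07 (SE 0.09). Its unpaired difference of 0.14 became 0.05 without wt 1, which held the value of 1116. Acadvl, for very long chains, and Acadl, for long chains, had paired differences of -0.02 (SE 0.11) and -0.01 (SE 0.10).

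Among the 5 genes of the later steps, Hadha had the largest difference. Hadha ran from 2192 over 2786 to 3126 in wt and from 2668 over 2972 to 3394 in mCAT and was higher in mCAT in 5 of 6 pairs, with a paired difference of 0.11 (95% interval -0.08 to 0.31). Hadhb, which shares the upstream bases printed above, had a paired difference of 0.05 (SE 0.10) and was higher in mCAT in 2 of 6 pairs. Hadh had a paired difference of 0.06 (SE 0.09), Acaa2, a thiolase, one of -0.09 (SE 0.09), and Echs1 one of -0.10 (SE 0.08) with mCAT higher in 1 of 6 pairs. The 3 electron transfer genes had paired differences below 0, but without pairing Etfdh stood at 0.09 (SE 0.17). Etfa and Etfb, the subunits of the electron transfer flavoprotein, stood at -0.08 (SE 0.08) and -0.12 (SE 0.08), and Etfdh at -0.03 (SE 0.12). Across all 29 genes the count of pairs with mCAT higher was 0 for 1 gene, 1 for 1, 2 for 11, 3 for 7, 4 for 4 and 5 for 5 genes, and no gene was higher in mCAT in 6 of 6 pairs, where 2.74% of all genes were. For none of the 29 did the wt and mCAT libraries separate without overlap, as they did for 0.24% of all genes.

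Ratios of genes within a library differed in how far they ranged. Etfa and Etfb ranged over 1.77-fold and 1.84-fold across libraries, or 1.63-fold and 1.58-fold without wt 1, while their ratio ranged over 1.24-fold, from 1.14 to 1.42. Hadhb to Hadha ranged over 1.52-fold, from 1.18 to 1.79, against 1.77-fold and 1.55-fold for the genes. Dlst to Ogdh ranged from 0.62 to 0.86. In these 3 cases the ratio ranged less than either gene alone, also without wt 1, which held the value of 0.86. Suclg1 to Sucla2 ranged over 1.46-fold, against 1.47-fold and 1.76-fold for the genes. In the NAD-linked isocitrate dehydrogenase, the ratios with Idh3a were less even. Idh3a to Idh3b ranged over 1.97-fold and Idh3a to Idh3g over 1.93-fold. Both ranged more than Idh3a (1.80-fold), Idh3b (1.31-fold) or Idh3g (1.55-fold) alone. Idh3b to Idh3g ranged over 1.37-fold, between the ranges of these genes. Mdh2 to Mdh1, enzymes of different compartments, ranged over 2.29-fold, or 2.19-fold without wt 1. Pdhb to Pdha1 varied more, from 0.96 to 2.28, the highest value being that of wt 1, and the mCAT partner had the lower ratio in 6 of 6 pairs. Without wt 1 that ratio ranged over 1.57-fold. These pairs of genes were chosen as partners by function, and the ratio of Pdhb to Pdha1 was singled out after its values were seen.

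The library code series gave the larger differences, but again no call among the 29. In the comparison of C2 with C1, with genotype as a covariate and the stem as a random block, 0 of the 29 genes had an adjusted p under 0.05 (limma), where 2.71% of all genes were called. An unadjusted p under 0.05 was reached by 4 of the 29 (Dlst, Echs1, Hadh and Idh2), where 17.1% of all genes reached it. The adjusted p-values of the 29 (limma) ran from 0.127 to 0.980, and the median difference was -0.02 on the log2 scale beside -0.01 for all genes. Of the 29 intervals, 28 lay within 2-fold, where 90.4% of all did so. The 4 genes are described because of their unadjusted p, which was seen first.

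Dlst, the lipoyl-bearing component of the oxoglutarate dehydrogenase complex, ran from 3206 over a median of 4088 to 6432 in C1 and from 2838 over 3172 to 3364 in C2. Only the upper end of C2 overlapped C1, and the log2 difference was -0.45 (SE 0.15, adjusted p = 0.127 by limma), or -0.34 without wt 1, which held the value of 6432. Hadh ran from 624 over 1252 to 2081 in C1 and from 1178 over 1978 to 2394 in C2, a difference of 0.57 (SE 0.25, adjusted p = 0.258 by limma), or 0.41 without wt 1. Idh2 ran from 1869 over 3077 to 3827 in C1 and from 2711 over 4094 to 4780.0 in C2, a difference of 0.39 (SE 0.18, adjusted p = 0.266 by limma), or 0.27 without wt 1. Echs1 ran from 3259.5 over 3778 to 5419 in C1 and from 4102 over 5388 to 6179.6 in C2, a difference of 0.34 (SE 0.15, adjusted p = 0.236 by limma). The C1 and C2 ranges overlapped for all 4 genes. No other of the 29 separated C1 from C2 either, where 2.25% of all genes did.

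Idh2 and Idh3a, 1 subunit of the NAD-linked isocitrate dehydrogenase, had differences of opposite sign between the series. Idh3a stood at -0.27 (SE 0.16) and Idh2 at 0.39. The other subunits, Idh3b and Idh3g, stood at 0.17 (SE 0.11) and 0.16 (SE 0.13), the sign of Idh2. The ratio of Idh2 to Idh3a ran from 0.99 over 1.25 to 1.497 in C1 and from 1.42 over 2.32 to 2.44 in C2. This ratio was singled out after its values were seen and was not tested. Markers of some other cells also moved with the series. The sum of the microglia markers ran from 16764 to 42921 normalised counts in C1 and from 35675 to 70438 in C2, with 5 of 5 tested markers above 0 and Gpr34 called. The sum of the macrophage markers, of which Lyz2 was the most abundant, ran from 1297560 to 2191150 in C1 and from 2656970 to 6237180 in C2. Of the 12 macrophage markers, 10 had a difference above 0, and only Lyz2, Apoe and Ms4a7 were called. The neutrophil marker sum ran from 1925 to 7619 in C1 and from 1798 to 3674 in C2, with 0 of 4 tested markers above 0 in the C2 minus C1 difference and Cxcr2 called. Of the T cell markers 0 of 7 had a difference above 0, but none was called. Their sums overlapped, from 2806 to 8327 in C1 and from 2820 to 4611 in C2. Lists with differences of both signs and no call were B cells (3 of 5 above 0) and dendritic cells (2 of 7). The same held for natural killer cells, oligodendrocytes, astrocytes and neurons (2 of 4 each). For endothelial and erythroid markers 0 of 3 were above 0, without a call. The part of all these markers in the series differences was not tested.

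**Figure D5:**
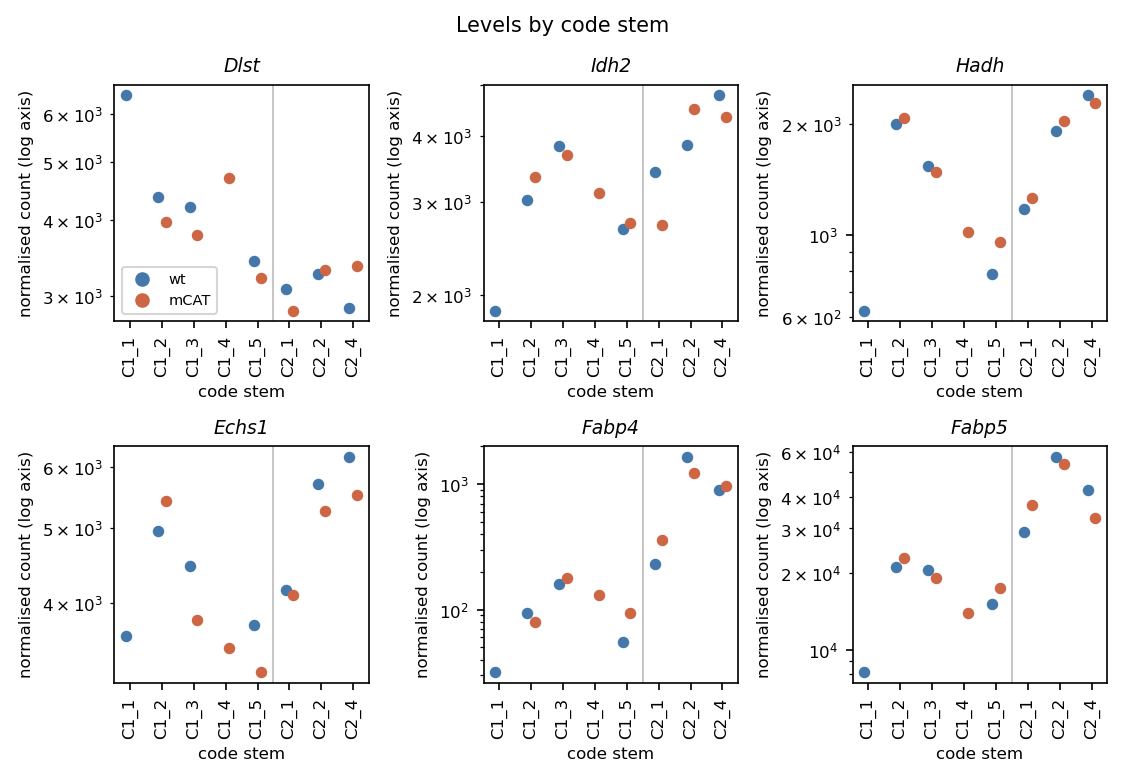
Normalised count (log axis) of Dlst, Idh2, Hadh, Echs1, Fabp4 and Fabp5 by code stem, with wt libraries in blue and mCAT libraries in orange and a grey line between the C1 and C2 stems. The C2 libraries of Fabp4 and Fabp5 all lie above the C1 libraries, while the other 4 genes overlap.

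Whether the genotype difference itself differed between C1 and C2 was tested in the 12 paired libraries. The limma interaction called 0 of the 29 genes and 0 of all 12096, and an unadjusted p under 0.05 was reached by 0 of the 29, where 2.63% of all genes reached it. The adjusted p was 0.9997 for each of the 29. The intervals ran from -0.77 to 0.71 on the log2 scale. Of the 29, 22 lay within 1.5-fold, where 32.8% of all genes did so, a share that includes genes with lower counts.

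The neighbouring steps of metabolism were read from 7 lists of 96 further genes, of which 89 were tested. By genotype 0 of the 89 were called by limma in either fit, and an unadjusted p under 0.05 was reached by 4 without pairing and 8 with pairing, shares near the 5.37% and 9.24% of all genes. Their median log2 difference was 0.08 without pairing and 0.05 with pairing. By list, the unpaired median was 0.09 for 11 genes of pyruvate entry, 0.10 for 18 other genes of the cycle and its shuttles, 0.03 for 5 genes of lipoate attachment and 0.08 for 20 of mitochondrial fatty acid oxidation. It was 0.21 for 11 genes of peroxisomal oxidation, 0.10 for 12 of fatty acid supply and 0.04 for 12 regulators, beside -0.00 for all genes. With pairing the medians were 0.02 for pyruvate entry, 0.07 for the cycle and its shuttles, -0.04 for lipoate attachment, 0.05 for mitochondrial oxidation, 0.10 for peroxisomal oxidation, 0.06 for supply and 0.07 for regulators, so that lipoate attachment turned in sign. Pdk4, Me1, Cpt1b, Acacb, Acaa1b and Prkaa2 were below the filter, and Ppara was not analysed here.

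Acly, which splits exported citrate into acetyl-CoA, ran from 2777 over 5744 to 6613 in wt and from 5309 over 6847 to 8873 in mCAT, with a paired difference of 0.34 (SE 0.14, adjusted p = 0.483 by limma). Mpc2, a subunit of the mitochondrial pyruvate carrier, ran from 1341 over 1468 to 1816 in wt and from 1008 over 1224 to 1492 in mCAT, with a paired difference of -0.25 (SE 0.10, adjusted p = 0.499 by limma). Both overlapped between groups, and Acly was higher and Mpc2 lower in mCAT in 5 of 6 pairs. Aco1, the cytosolic aconitase, had a paired difference of 0.26 (limma, adjusted p = 0.517). Acod1, which makes itaconate from the cycle intermediate aconitate in activated macrophages, was abundant, with medians of 29226 in wt and 35734 in mCAT. Its difference was 0.13 (SE 0.25) without pairing, and it turned to -0.01 without mCAT 4 or without wt 6. Between partners the ratio of Acod1 ran only from 0.969 to 1.25, and 96.6% of its variance lay between stems.

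By code series 3 of the 89 genes were called, a share near the 2.71% of all genes, and all 3 were from the 12 of fatty acid supply. Fabp4, a fatty acid binding protein of fat cells and macrophages, ran from 31.8 over 94.0 to 180.0 in C1 and from 230.5 over 931 to 1653 in C2. It rose by 2.14 (SE 0.32) on the deposited log2 scale (limma, adjusted p = 0.00133). That scale compresses low counts, so the rise in normalised counts was larger. Fabp5, a related binding protein, ran from 8160.4 over 18284 to 22977 in C1 and from 29068 over 39709 to 57458 in C2 and rose by 1.36 (SE 0.24, adjusted p = 0.00478 by limma). Slc27a4, a fatty acid transporter and acyl-CoA synthetase, ran from 731 over 786 to 875 in C1 and from 416 over 485 to 619.8 in C2 and fell by 0.58 (SE 0.13, adjusted p = 0.0239 by limma). None of these 3 genes overlapped between C1 and C2. The call on Slc27a4 ended without mCAT 3, without wt 6 or without mCAT 7, where its adjusted p by limma reached 0.0667. The 3 genes belong to the handling of fatty acids before the mitochondrion, and Cpt1a, the first step of entry, had a C2 minus C1 difference of 0.28 (SE 0.23, adjusted p = 0.600 by limma). The macrophage and microglia marker sums given above moved with the same series.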

How the data were processed

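RNA had been read as paired ends from Smart-seq2 libraries of sorted cells, which are not strand-specific. Per the submitters' processing notes, the tools were FastQC, fastp and Salmon and the build GRCm39; no version or annotation is given in the sources used here. Values in the deposited table are on a log2 scale, have no whole numbers and share 1 lowest value of 5.964, as scaled counts have after variance stabilisation; how they were made is not stated. Undoing that form gave normalised counts. Depth was estimated from the size of 1 read among low values, of which 44.4% (wt 7) to 75.6% lay within 0.15 of a whole number, so whole reads were not recovered; reads without molecular identifiers limit depth to counting error.

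Genes with a normalised count of at least 10 in at least 7 of 14 libraries were tested on the deposited log2 values with limma 3.58.1 (R 4.3.3, statmod 1.5.0; trend, robust), 2-sided, with Benjamini-Hochberg adjustment over all 12096 genes and a threshold of 0.05. The C2 minus C1 fit had a within-stem correlation of 0.463. The scripts were tested on simulated data. Deviations from the genotype means correlated between partners of all 6 stems (0.232 to 0.659), which was taken as pairing by stem. The check cannot establish the pairing, because the code series was not removed. Libraries matched by title number without a shared stem gave -0.294, 0.158 and 0.252 (numbers 1, 2 and 3). The pairing comes from the library codes, not from a stated shared animal. Length per gene is that of the longest protein-coding transcript in GENCODE. Promoter windows are RefSeq, GRCm38.p6, another build than that of the expression values.

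The 29 genes, lists and tests were chosen with earlier results of these data known. Values were given for genes called in any fit, then by genotype p up to 10 of the 29, and for other pathway genes called in any fit or with an unadjusted p under 0.05 in both genotype fits, and for Acod1, Cat and Ccr2; 1 gene that this rule names is not reported here. Alternatives were the stem or title number as a block, the code series as covariate, another filter, log2(normalised count + 1), quantile normalization, no robust moderation and leaving out each library.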

Additional observations from a re-analysis of the deposited data

Results flagged for a closer look

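The normalised count of Dlst in wt 1 was 6432, far from the other wt libraries, of which the next highest was 4378. The gap was 0.577 of the whole range of the 7 wt libraries. It was the only one of 58 groups of 7 libraries (29 genes in 2 genotypes) with a sample this far from the rest. That is 1.72% of the groups, where chance gives about 1 in 20, so such values were no more frequent than chance gives. Dlst and Ogdh were the genes of the 29 for which wt 1 was highest, while it was lowest for 15.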

How the results depend on the processing

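The count of 0 among the 29 genes by genotype, by code series and for the interaction was the same under every alternative run. These included leaving out each library by genotype and by code series; for the interaction no single library was left out, only stem C2_4. By genotype, the count over all genes was 24 and rose to 38 with the code stem as a replicate block, a block that changed no other call reported here by genotype except that on Ccr2. It was 25 with the title number as a block and 28 with the stem block without stem C2_4, chosen after seeing the data, and 18 to 25 when each library was left out. By code series, the count over all genes was 328 and became 903 with no code stem block, and it ran from 186 (without wt 6) to 507 (without wt 5) when each library was left out. The further libraries that moved it by over 1.5 times were wt 1, with 498, mCAT 3, with 214, mCAT 6, with 196, wt 7, with 208, and mCAT 7, with 199. The count among the 89 other pathway genes was 3, became 12 with no code stem block and 5 with quantile normalization, and ran from 2 to 7 when each library was left out, with 7 without wt 1 or mCAT 5, 6 without mCAT 1 or wt 5 and 5 without wt 2. The difference of Acod1 ran from -0.01 to 0.27 when each library was left out, reversing to -0.011 without mCAT 4 and to -0.0135 without wt 6. Apart from these and the call on Slc27a4, the direction and side of the threshold of the single genes named held in 177 values under other settings and in 303 with a library left out. The cause of these changes was not tested.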
